A study of Mus musculus with 8 samples.

Results

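The 10 genes described here encode the major histocompatibility complex (MHC) class II antigen presentation pathway and markers of Langerhans cells, and were measured in mouse forepaw skin after an injection of pituitary adenylate cyclase-activating polypeptide (PACAP). They were chosen by gene name: H2-Aa, H2-Ab1, H2-Eb1, H2-DMa, H2-DMb1, Cd74, Ciita, Cd207, Epcam and Itgax, which are read by 14 of the 39429 probes and are 10 of the 29608 gene names on the array. Palm skin came from male C57BL/6 wild-type mice (WT) and male Adcyap1r1 -/- mice lacking the PACAP receptor PAC1R (PAC1R KO), all with the strain label C57BL/6J and 9 to 10 weeks old, with 6 mice of each genotype. Under anaesthesia the centre of the footpad received 5 µL of PACAP at 1e-07 mol/L in saline with 0.1% bovine serum albumin, or the same vehicle alone, and skin was taken 30 or 60 min later. The PACAP RNA and the vehicle RNA of 1 genotype and time were hybridised together on 2 Agilent arrays with swapped dyes, so the 4 comparisons (WT 30 min, WT 60 min, KO 30 min and KO 60 min) rested on 8 RNA samples, 1 for each condition. How the mice were divided among these samples, or combined within one, is not given in the sources used here. The KO lacks the receptor in the whole animal, so PAC1R on nerves, vessels and immune cells is deleted as well as that on sweat glands.

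MHC class II molecules are pairs of an alpha and a beta chain that carry peptides from endocytosed material to the cell surface, where CD4 T cells read them. The invariant chain Cd74 escorts the new molecule to the endosome, H2-DM exchanges its remnant for a peptide, and Ciita is the coactivator that turns on these genes. In healthy skin, class II is highest on Langerhans cells of the epidermis and on dendritic cells and macrophages of the dermis. Langerhans cells also carry langerin (Cd207) and the adhesion molecule Epcam, which simple epithelia such as the sweat gland share, and the integrin Itgax (CD11c) marks dendritic cells more widely. Skin of C57BL/6 mice has no surface I-E molecule because the alpha chain gene H2-Ea is defective in this strain, although the beta chain gene H2-Eb1 is transcribed.

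A shared set of short motifs upstream of the start site is the best known feature of class II genes, and the 120 bases before the RefSeq start (build GRCm38.p6) are shown for H2-Aa, H2-Eb1 and H2-DMb1 because they hold such motifs. Capitals mark the Y box CTGATTGG (reverse complement CCAATCAG), the cAMP response element TGACGTCA, and CTAGNAACTGATGATGCT (reverse complement AGCATCATCAGTTNCTAG), the longest stretch that H2-Eb1 and H2-DMb1 share with at most 1 mismatch, which lies where the X box of class II genes is known to be. The marked stretches do not overlap each other.
H2-Aa, chr17:34287824-34287943, minus strand: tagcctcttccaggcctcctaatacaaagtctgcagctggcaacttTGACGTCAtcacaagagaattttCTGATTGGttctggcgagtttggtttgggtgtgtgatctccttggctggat
H2-Eb1, chr17:34305747-34305866, plus strand: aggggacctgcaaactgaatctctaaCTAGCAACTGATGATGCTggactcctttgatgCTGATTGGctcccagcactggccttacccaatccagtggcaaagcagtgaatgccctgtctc
H2-DMb1, chr17:34153071-34153190, plus strand: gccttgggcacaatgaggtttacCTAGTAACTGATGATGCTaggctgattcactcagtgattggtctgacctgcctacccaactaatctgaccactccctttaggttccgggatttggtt
Promoters of 7 of the 10 genes were at hand, and the 250 bases before each start were searched on both strands. The Y box, searched as an exact match, was found in H2-Aa (its first base at position -51 from the start) and H2-Eb1 (-62). It was in 3.83% of all 32851 promoters. The H2-DMb1 sequence holds gtgattgg, which differs from the Y box at 1 base and was not counted. The shared stretch, which was taken from H2-Eb1 (-94) and H2-DMb1 (-97), was in these 2 of the 32851 promoters (0.00609%). The cAMP response element was found in H2-Aa (-74) and in 1.55% of all promoters.

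The gene deleted in the KO, Adcyap1r1, read log2 levels of 8.27 to 8.76 in the 4 WT samples and 7.91 to 8.56 in the 4 KO samples, so the groups overlapped across times. Within each time and treatment KO minus WT was below 0, from -0.36 to -0.11. The gene was also higher at 60 than at 30 min in 4 of 4 contrasts, by 0.39 to 0.58. Its level was lower in KO by -0.28 (SE 0.06, limma adjusted p = 0.0652), and whether its probe lies in the deleted part is not given in the sources used here. The skin labels were borne out by Krt9, the keratin of palm and sole epidermis, at log2 levels of 15.03 to 15.70 in all 8 samples. In the red channel 78.6% to 94.5% of an array's spots exceeded background clearly, and in the green 54.0% to 65.3%. Each genotype lay on a slide of its own, and an effect of the slide cannot be told apart from one of genotype. Marker genes of other tissues differed between the samples hybridised together, by the 2.0-fold rule given below, which called 0.35% of all probes in WT at 30 min, 0.692% in WT at 60 min and 0.708% in KO at 30 min. Of 12 skeletal muscle genes, 2 were called up in WT at 30 min and 4 down in KO at 30 min. Of 11 hair shaft genes, 10 were called up in WT at 60 min and 9 up in KO at 30 min. Of 11 liver genes 8 were called down in WT at 60 min, and of 10 epidermal genes 2 were called down in KO at 30 min. The part of these differences in the results was not tested, and in skin as a whole fewer cells of a type and less RNA per cell cannot be told apart.

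Every one of the 10 genes had a probe well above background in all 8 RNA samples, and the brightest probe stands for the gene. Langerhans cell and class II transcripts were thus detected throughout, for Ciita by its brightest probe only. For H2-Ab1, the brightest probe (chr17:34406296-34406355, mm9) and its other probe (chr17:34406305-34406363) overlap by 51 bases that differ at 1 base, T51C with positions counted from 1 at the 5′ end of the brightest probe. The stretch around that base, capitalised, is shown because both probes read the same end of the transcript.
Brightest probe: acaaataaacgagacTcagactct
Other probe: acaaataaacgagacCcagactct
The other probe gave log2 ratios of PACAP over vehicle of 0.13, 0.41, -0.11 and -0.20 in the 4 comparisons (WT, then KO, each at 30 and then 60 min), against 0.08, 0.45, -0.13 and -0.30 for the brightest, so both had the same sign in every comparison. The further probe of H2-DMb1 (chr17:34290109-34290168) was well above background on both arrays in 0 of 8 samples, and so were both other probes of Ciita.

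The 2 dye orientations of a sample differed by a median of 0.32 on the log2 scale for the brightest probe of Ciita, against 0.04 to 0.19 for the other 9 genes, so the Ciita values below carry the largest measuring error of the 10. Of the bases of this probe 65.0% are A, against 23.3% to 41.7% in the brightest probes of the other 9 genes. Whether its signal comes from Ciita alone was not tested.

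PACAP changed none of the 10 genes past the 2.0-fold rule in any of the 4 comparisons. To count as changed, a gene needed a mean ratio of at least 2.0 or at most 0.5, one direction on the array pair, and on each array a p under 0.01 from the error models of Feature Extraction, which speaks of 1 spot on 1 array. Where a pair of ratios is given, the array with PACAP in Cy5 stands first. By this rule 0 of 10 genes changed in WT at 30 min, where 0.35% of all probes on the array did, and 0 of 10 in WT at 60 min, against 0.692% of probes. In the KO, 0 of 10 changed at 30 min, against 0.708%, and 0 of 10 at 60 min, against 0.292%. With shares under 1% over all probes, 0 of 10 is no result particular to these genes.

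**Figure D1:**
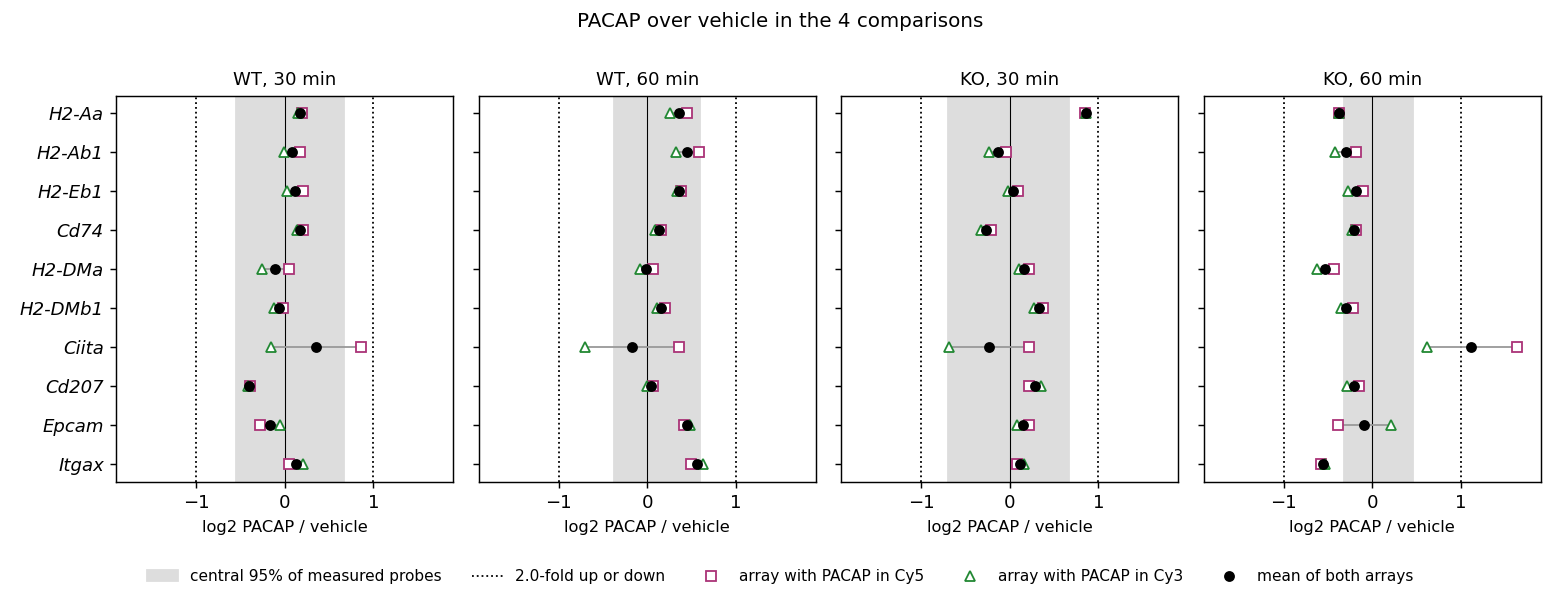
The horizontal axis gives the log2 ratio of PACAP over vehicle for each gene in each comparison, for the array with PACAP in Cy5 (squares), the array with PACAP in Cy3 (triangles) and their mean (filled circles). The grey band holds the central 95% of measured probes and the dotted lines mark 2.0-fold. In KO at 60 min 9 of the 10 means lie left of 0, while Ciita, with its arrays far apart, lies at 1.12.

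Below that threshold, the direction of the small differences varied with the comparison. In WT at 60 min 8 of the 10 genes had a higher value with PACAP (median log2 ratio 0.26, against -0.02 over all measured probes), and in KO at 60 min 9 of the 10 had a lower value (median -0.25, against -0.01). At 30 min, 6 of 10 lay above 0 in WT (median 0.10) and 7 of 10 in KO (median 0.13). With normexp and loess processing in place of Feature Extraction ratios the counts above 0 were the same, 6, 8, 7 and 1 of 10. Genes of shared cells and, for the H2 genes, of 1 stretch of chromosome 17 are not independent of each other, and each comparison is 1 pair of RNA samples.

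Among the chains of the class II molecules, H2-Aa, the alpha chain of I-A, had the largest ratio. It read 1.81-fold and 1.82-fold higher with PACAP on the arrays of KO at 30 min, the only case among the 10 genes and 4 comparisons in which both arrays passed the p threshold. At 1.5-fold in place of 2.0-fold it would count as changed, with 2.71% of all probes in that comparison. In the same skin pair the H2-Ab1 ratio was 0.973 and 0.853, and that of H2-Eb1 1.07 and 0.987. The alpha and the beta chain of I-A thus did not move together in KO at 30 min. At 60 min in KO H2-Aa was lower with PACAP, at 0.767 and 0.766, and in WT it was higher, at 1.14 and 1.11 after 30 min and 1.37 and 1.20 after 60 min.

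H2-Ab1, the I-A beta chain, had its largest ratio in WT at 60 min, at 1.5 and 1.26 on its arrays, of which the first passed the p threshold. In KO at 60 min it was at 0.881 and 0.749. H2-Eb1, the I-E beta chain, read 1.30 and 1.26 in WT at 60 min, and 0.934 and 0.832 in KO at 60 min. Cd74, the invariant chain, was within 0.800 to 1.15 on all 8 arrays, above 1 on the 4 WT arrays and below 1 on the 4 KO arrays. None of these 3 genes passed the p on both arrays of any comparison.

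H2-DMa and H2-DMb1, the chains of the peptide exchange factor, were at 0.744 and 0.649 and at 0.857 and 0.783 in KO at 60 min, and of these 4 values only 0.649 passed the p threshold. In the other comparisons H2-DMa stayed within 0.836 to 1.16 on single arrays and H2-DMb1 within 0.922 to 1.30. Ciita had the only mean past 2.0-fold, 2.18 in KO at 60 min. Its arrays gave 3.09-fold and 1.54-fold, of which the second missed the p threshold, and with normexp and loess the mean was 1.43-fold. In each of the other comparisons its 2 arrays pointed in opposite directions.

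None of the cell markers passed the rule. Cd207, the langerin gene of Langerhans cells, read 0.764 and 0.752 in WT skin at 30 min, 1.05 and 1.00 at 60 min, 1.17 and 1.28 in KO skin at 30 min, and 0.903 and 0.824 at 60 min. Epcam was highest in WT at 60 min, at 1.34 and 1.39, and its arrays disagreed in direction in KO at 60 min. Itgax, which marks dendritic cells, showed the widest contrast at 60 min, with 1.41 and 1.54 in WT and 0.670 and 0.694 in KO. Each of these pairs missed the p threshold on at least 1 array.

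The WT 60 min and KO 60 min pairs, in which 8 of the 10 genes lay above 0 and 9 of the 10 below 0, also differed in hair shaft transcripts. Over the 11 hair shaft genes the log2 ratio had its median at 2.20 in the WT pair and at -0.52 in the KO pair. In KO at 30 min, where H2-Aa was highest, the median was 1.79, and in WT at 30 min it was 0.24. The muscle list, at 0.83 in WT and -0.74 in KO at 30 min, was at -0.03 and 0.01 at 60 min. The 5 general leukocyte genes (Ptprc, Coro1a, Laptm5, Cd52 and Cd53) had a median of 0.56 in KO at 30 min. Theirs was 0.05 in WT at 30 min, -0.02 in WT at 60 min and -0.03 in KO at 60 min. The part of hair, muscle or leukocyte content in the class II ratios was not tested.

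Pooling the 4 comparisons asked for a change shared by genotypes and times. None of the 10 genes differed from 0 in this fit (limma, adjusted p below 0.05, n = 4 comparisons), and 0 had an unadjusted p under 0.05, while of all 30350 probes 0 passed (0%) and 678 had an unadjusted p under 0.05. The fitted ratios ran from -0.12 (SE 0.13) for H2-DMa to 0.27 (SE 0.23) for Ciita, with 7 of 10 above 0. Setting the PACAP effect in KO against that in WT, 0 of 10 genes and 0 of 30350 probes (0%) passed, and 0 genes and 972 probes had an unadjusted p under 0.05. The fitted KO minus WT differences were -0.56 (SE 0.30) for Itgax, -0.48 (SE 0.22) for H2-Ab1, -0.38 (SE 0.19) for Cd74 and -0.31 (SE 0.21) for H2-Eb1, against 0.36 (SE 0.46) for Ciita and 0.22 (SE 0.27) for Cd207. Leaving out 1 comparison, they ran from -0.90 to -0.22 for Itgax, from -0.67 to -0.29 for H2-Ab1 and from -0.43 to -0.19 for H2-Eb1. For H2-Aa (-0.03 with all) they ran from -0.65 without KO 30 min to 0.60 without KO 60 min. A difference of the PACAP effect between genotypes was thus not detected. In simulated data this fit found 134 of 200 probes given a log2 change of 3, so smaller differences could be missed.

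Levels were also compared between 60 and 30 min. Levels are log2 intensities after background correction and normalization between arrays, the mean of both arrays of an RNA sample, and are compared within a gene only. Where a pair of levels is given, vehicle stands first and PACAP second. Cd74 rose from a mean of 11.28 over the 4 samples at 30 min to 12.03 over the 4 at 60 min, a difference of 0.75 (SE 0.17, limma adjusted p = 0.0421). H2-DMa rose from 8.07 to 8.83, by 0.76 (SE 0.11, adjusted p = 0.019), and H2-Eb1 from 13.18 to 13.69, by 0.52 (SE 0.12, adjusted p = 0.0464). Thus 3 of the 10 genes rose and 0 fell, where 6.68% of the 26352 probes tested rose and 4.08% fell, and the median of the 10 was 0.45 against 0.00 over all probes.

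**Figure D2:**
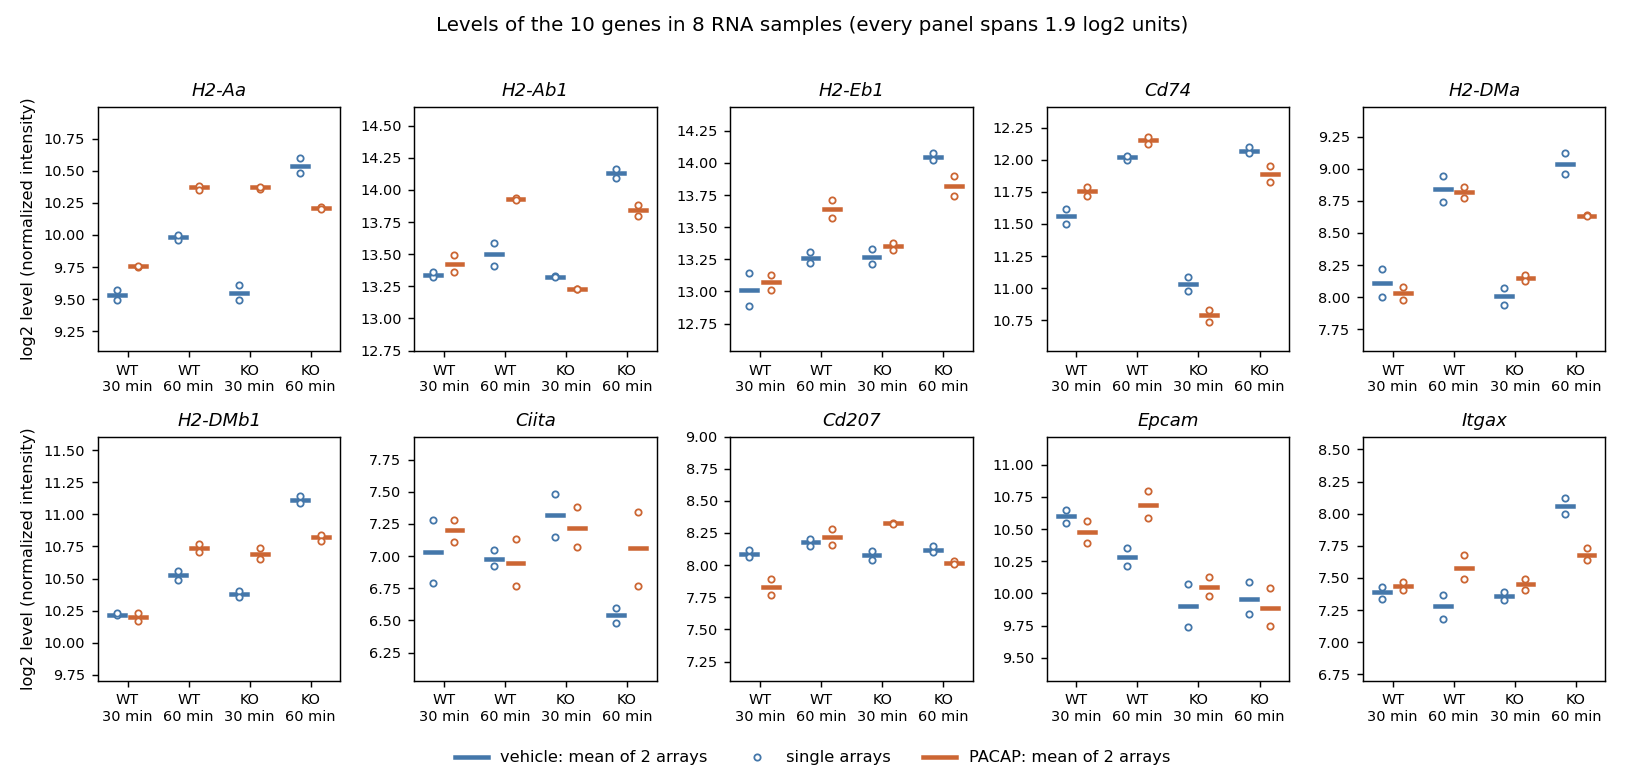
Each panel gives the log2 level of a gene (vertical axis, normalized intensity) in the 8 RNA samples, by genotype and time along the horizontal axis. Thick lines are means of 2 arrays, blue for vehicle and orange for PACAP, and open circles are the single arrays. The 4 samples at 30 min lie below the 4 at 60 min for H2-DMa, and KO vehicle at 60 min is the highest sample for 6 of the 10 genes.

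H2-DMa read 8.11 (vehicle) and 8.03 (PACAP) in WT skin at 30 min, 8.84 and 8.82 at 60 min, 8.01 and 8.15 in KO skin at 30 min, and 9.04 and 8.63 at 60 min. Every sample at 60 min lay above every sample at 30 min, and the gap exceeded 0.22, the largest difference between the 2 arrays of a sample. Cd74 read 11.56 and 11.76 in WT skin at 30 min, 12.02 and 12.15 at 60 min, 11.03 and 10.79 in KO skin at 30 min, and 12.07 and 11.89 at 60 min. The 2 times did not overlap for Cd74 either, with a gap no larger than the 0.13 by which arrays of a sample could differ, and the 2 KO samples at 30 min were its lowest. H2-Eb1 read 13.01 and 13.07 in WT skin at 30 min, 13.26 and 13.64 at 60 min, 13.27 and 13.35 in KO skin at 30 min, and 14.05 and 13.82 at 60 min. Here the times overlapped across genotypes, since WT vehicle at 60 min lay at the level of both KO samples at 30 min, within the 0.25 by which arrays of a sample could differ. Within each genotype and treatment H2-Eb1 was higher at 60 min in 4 of 4 contrasts, by 0.25 to 0.78.

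The other class II genes had the same sign without passing the threshold. H2-Ab1 read 13.34 and 13.42 in WT skin at 30 min, 13.50 and 13.93 at 60 min, 13.32 and 13.23 in KO skin at 30 min, and 14.13 and 13.84 at 60 min, a fitted difference of 0.52 (SE 0.15, adjusted p = 0.0791). Its 4 contrasts of single samples ran from 0.16 to 0.80. The times did not overlap, but their gap was under the 0.18 by which arrays of a sample could differ, and the highest sample was KO vehicle at 60 min. H2-DMb1 read 10.22 and 10.20 in WT skin at 30 min, 10.53 and 10.74 at 60 min, 10.38 and 10.69 in KO skin at 30 min, and 11.11 and 10.82 at 60 min (0.42, SE 0.12, adjusted p = 0.0733). The KO sample with PACAP at 30 min lay above WT vehicle at 60 min. H2-Aa read 9.53 and 9.76 in WT skin at 30 min, 9.98 and 10.37 at 60 min, 9.55 and 10.37 in KO skin at 30 min, and 10.54 and 10.21 at 60 min (0.47, SE 0.20, adjusted p = 0.176). With PACAP in the KO, H2-Aa was 0.16 lower at 60 than at 30 min, the exception among its 4 contrasts.

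Ciita and the cell markers did not pass the threshold for time. Ciita read 7.03 and 7.20 in WT skin at 30 min, 6.98 and 6.95 at 60 min, 7.32 and 7.22 in KO skin at 30 min, and 6.54 and 7.06 at 60 min (-0.31, SE 0.14, adjusted p = 0.189), with -0.73 on processed signals, -0.15 without a KO pair and -0.47 without a WT pair. It was below its 30 min level in 4 of 4 contrasts, by 0.05 to 0.78, while its arrays of a sample differed by up to 0.57. Cd207 read 8.09 and 7.83 in WT skin at 30 min, 8.18 and 8.22 at 60 min, 8.08 and 8.33 in KO skin at 30 min, and 8.12 and 8.02 at 60 min (0.05, SE 0.13, adjusted p = 0.821). It had the smallest spread of the 10, an SD of 0.15 over the 8 samples. Itgax read 7.39 and 7.44 in WT skin at 30 min, 7.28 and 7.58 at 60 min, 7.36 and 7.45 in KO skin at 30 min, and 8.06 and 7.68 at 60 min (0.24, SE 0.16, adjusted p = 0.350), with 0.02 without a KO pair and 0.47 without a WT pair. Apart from KO at 60 min, its samples lay within 7.28 to 7.58, with arrays of a sample up to 0.19 apart.

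**Figure D3:**
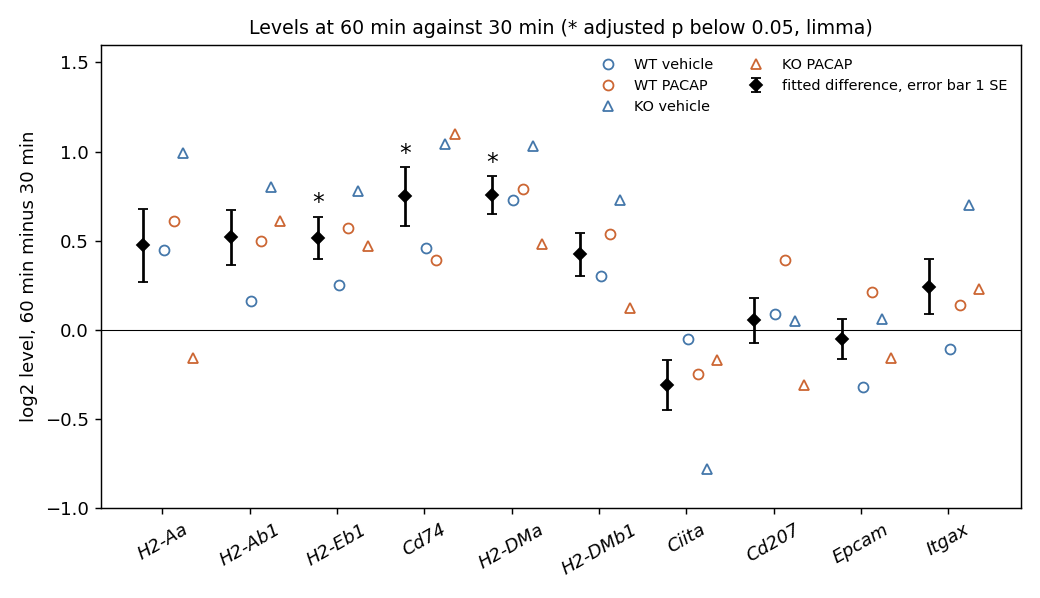
The vertical axis is the log2 level at 60 min minus that at 30 min for each gene along the horizontal axis. Diamonds are the fitted differences with 1 SE, asterisks mark adjusted p below 0.05, and open symbols are the 4 contrasts of single samples by genotype and treatment. The 6 class II chain and loading genes lie above 0 (0.42 to 0.76), while Cd207 and Epcam lie at 0.05 and -0.05.

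The time difference rested on few samples. With 4 pairs of RNA samples, leaving out WT 30 min, WT 60 min or KO 60 min left 0 of 10 genes past the threshold, and leaving out KO 30 min left 1, H2-DMa, where of all 26352 probes 3692 rose and 3293 fell. Over all probes 0 passed without WT 30 min, WT 60 min or KO 60 min. Among the 10 genes, vehicle samples alone and PACAP samples alone gave 0 each. The estimates kept their sign in all of these for H2-DMa (0.63 to 0.88), Cd74 (0.43 to 1.07) and H2-Eb1 (0.41 to 0.62).

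No gene differed in level between KO and WT past the threshold (0 of 10, limma, 4 samples a genotype, 4 with an unadjusted p under 0.05), where 3.43% of all probes did, 440 higher and 463 lower in KO, and 6947 of 26352 had an unadjusted p under 0.05. Epcam came nearest. It read 10.60 and 10.48 in WT skin at 30 min, 10.28 and 10.69 at 60 min, 9.90 and 10.05 in KO skin at 30 min, and 9.96 and 9.89 at 60 min. All 4 KO samples lay below all 4 WT samples, by a mean of -0.56 (SE 0.11, adjusted p = 0.0524). Epcam passed on Feature Extraction processed signals and without the sample pair as a block. Of the 9 measured simple epithelium and eccrine gland genes, which share Epcam with Langerhans cells, 8 were lower in KO and 0 passed (median -0.24), with Krt7 at -0.42 (adjusted p = 0.0689), Krt8 at -0.44 (0.0889) and Cldn3 at -0.33 (0.0588). Cd207, the marker that epithelium lacks, differed by 0.06 (SE 0.13, adjusted p = 0.796). Without Aquantile normalization between arrays the median of all probes rose by 0.15, the split was 3577 higher and 164 lower, and H2-Eb1 (0.59) was the gene that passed. On processed signals the split was 1443 and 999.

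Other genes of the class II pathway were read beside all probes, of which 6.68% rose and 4.08% fell with time and 3.43% differed by genotype. Of the 16 measured in the list (proteases such as Ctss and Lgmn, the reductase Ifi30, the DNA-binding factors of the RFX and NF-Y complexes, Creb1, the remaining H2 genes and the ubiquitin ligases of class II), 0 rose and 1 fell at 60 against 30 min, and 0 differed between genotypes. The gene that fell was Marchf1, the ligase that removes class II and Cd86 from the surface, by -0.66 (SE 0.12, adjusted p = 0.0315). Its level was 8.09 and 8.54 in WT skin at 30 min, 7.75 and 7.73 at 60 min, 8.40 and 8.47 in KO skin at 30 min, and 7.44 and 7.93 at 60 min. All samples at 60 min were lower than all at 30 min. Its other measured probe, dimmer, had the opposite sign (0.19, SE 0.09, adjusted p = 0.208), so the fall rests on 1 probe. Ctss, the protease that trims the invariant chain, was 0.27 higher at 60 min (adjusted p = 0.12). H2-Eb2, a second I-E beta chain gene, was the pathway gene with the largest mean PACAP ratio, 1.38-fold, 1.39-fold, 1.61-fold and 1.97-fold in WT at 30 and 60 min and KO at 30 and 60 min. Its mean ratio was above 1 in 4 of 4 comparisons (mean log2 ratio 0.65, unadjusted p = 0.00106, adjusted p = 1.0) and was called in 0 of them. The 2 dye orientations differed. With PACAP in Cy5 the Feature Extraction p was 0.0007, 0.003, 6.2e-05 and 1.4e-07 in the same order, each past the p threshold. With PACAP in Cy3 it was 0.35, 0.13, 0.02 and 0.00077, past the p threshold in KO at 60 min only. The part of the dye in these ratios was not tested. The sign of H2-Eb2 with PACAP was that of H2-Eb1 in 3 of the 4 comparisons and the opposite in KO at 60 min. No pathway gene of this list was called in any comparison.

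Genes that regulate class II, mainly those of interferon gamma signalling, its best known inducer, held 1 of 8 measured that rose at 60 min (6.68% of all probes) and 0 that fell (4.08%). This was Irf1, a transcription factor that acts on class I and Ciita, at 9.64 and 10.20 in WT skin at 30 min, 10.21 and 10.83 at 60 min, 9.99 and 9.89 in KO skin at 30 min, and 10.99 and 11.27 at 60 min. Its difference was 0.90 (SE 0.19, adjusted p = 0.0377). None of the 8 was called with PACAP. Of 12 class I presentation genes 0 were called in any comparison, where 0.292% to 0.708% of all probes were, and 0 passed for time or genotype, and in WT at 60 min all 12 had a ratio above 1 (median log2 0.32), as the class II chains did. In KO at 60 min the 12 had a median of 0.03 while the class II chains were below 0.

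Of 9 measured costimulation and maturation genes of antigen presenting cells, 2 rose at 60 min, where 6.68% of all probes did. Cd83, which marks mature dendritic cells and holds class II at the surface, read 8.53 and 8.95 in WT skin at 30 min, 10.09 and 9.91 at 60 min, 8.81 and 8.86 in KO skin at 30 min, and 10.65 and 10.66 at 60 min. The times were far from overlapping, with a difference of 1.54 (SE 0.16, adjusted p = 0.0127). Ccr7, the receptor that guides maturing dendritic cells to lymph nodes, rose by 0.33 (SE 0.07, adjusted p = 0.0438), or by 0.96 on Feature Extraction processed signals, and the other 7 measured genes, Cd86 and Cd40 among them, did not pass. With PACAP 1 of the 9 was called, in a comparison where 0.692% of all probes were. This was Cd274, the PD-L1 gene that interferons induce, in WT at 60 min at 2.05-fold, while it was at 1.06, 0.990 and 0.947 in the other comparisons.

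Among markers of the cells that carry class II, 4 genes rose at 60 min and 0 fell, where 6.68% of all probes rose. Of 14 further Langerhans cell genes 1 rose at 60 min, Runx3, a factor these cells need (0.28, adjusted p = 0.0329), and their median was -0.03. Of 10 dermal dendritic cell genes 1 rose, the growth factor receptor Flt3 (0.35, adjusted p = 0.0359), and of 13 macrophage and monocyte genes (median 0.21, 10 above 0) 2 rose, Lyz2 (lysozyme, 0.53, adjusted p = 0.0476) and Adgre1 (a surface receptor of macrophages, 0.37, adjusted p = 0.0294). On processed signals Lyz2 (adjusted p = 0.0527) and Adgre1 (0.0528) missed the threshold for time, while Runx3 was at 0.57 and Flt3 at 0.60, and without a KO pair Flt3 was at 0.22. Lyz2 also missed it without the filter on dim probes (0.0592) and without Aquantile (0.0513). Of the 5 B cell, 7 T cell and 5 general leukocyte genes measured, 0 passed. Between genotypes, where 3.43% of all probes passed, 1 of the 13 macrophage and 1 of the 10 dermal dendritic cell genes did. Adgre1 was 0.66 higher in KO (SE 0.07, adjusted p = 0.0342), at 9.41 to 9.82 in the WT samples and 9.94 to 10.49 in the KO samples. With any 1 pair of samples left out, 0 of all probes passed between genotypes. Clec10a, a lectin of dermal macrophages and dendritic cells, was 0.50 higher (SE 0.10, adjusted p = 0.0495), at 10.45 to 10.76 and 11.01 to 11.26, and missed the threshold on processed signals (adjusted p = 0.0514). Neither gene overlapped between genotypes, and a dimmer probe of Adgre1 gave 0.40 (adjusted p = 0.0564). No gene of these immune cell lists was called with PACAP in any comparison. Below 2.0-fold, the general leukocyte genes had a median log2 ratio of 0.56 in KO at 30 min, with 4 of 5 above 0. There Cd52 (1.77-fold), Cd53 (1.71-fold) and the macrophage gene Ms4a7 (1.66-fold) were higher with PACAP and passed the p threshold on both arrays. Mfge8 of the Langerhans cell list (0.624-fold) also passed it on both arrays, in the other direction.

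Hair transcripts had a pattern over the samples close to that of class II, except in WT vehicle. The mean level of H2-Aa, H2-Ab1, H2-Eb1 and Cd74 was 11.86 and 12.00 in WT skin at 30 min, 12.19 and 12.52 at 60 min, 11.80 and 11.93 in KO skin at 30 min, and 12.70 and 12.44 at 60 min. The summed level of the 11 hair shaft genes was 13.26 and 13.41, 12.93 and 14.58, 12.44 and 13.69, and 15.17 and 14.65 in the same order. Across the 8 samples, which share arrays in pairs, the correlation was 0.89, as a description. It was 0.89 for the costimulation list, 0.72 for the macrophage list, 0.18 for muscle, -0.10 for the further Langerhans cell genes and -0.19 for epidermis. The 11 hair genes had a median time difference of 1.24 with 11 above 0, and 0 passed. In WT vehicle the class II mean was higher at 60 than at 30 min and the hair sum was lower. The summed macrophage level ranged from 14.25 to 14.55 at 30 min and from 14.34 to 14.66 at 60 min. The part of hair or macrophage content in the time difference was not tested. Genes of other lists also passed for time, with Apoc3 (liver) at 0.60 (adjusted p = 0.0152), the housekeeping gene Gusb at 0.26 (0.0341), Dsg3 (epidermis) at -0.42 (0.0392) and Foxa1 (sweat gland) at -0.34 (0.0459), and Gusb was 0.27 higher in KO (0.0495), the only 1 of 12 housekeeping genes that passed for either. Without Aquantile Dsg3 (adjusted p = 0.123) and Foxa1 (0.152) did not pass, Dsg3 was at -0.28 without a WT pair, on processed signals they were at -0.78 and -0.76, and there Gusb passed for neither time (0.0836) nor genotype (0.0991).

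**Figure D4:**
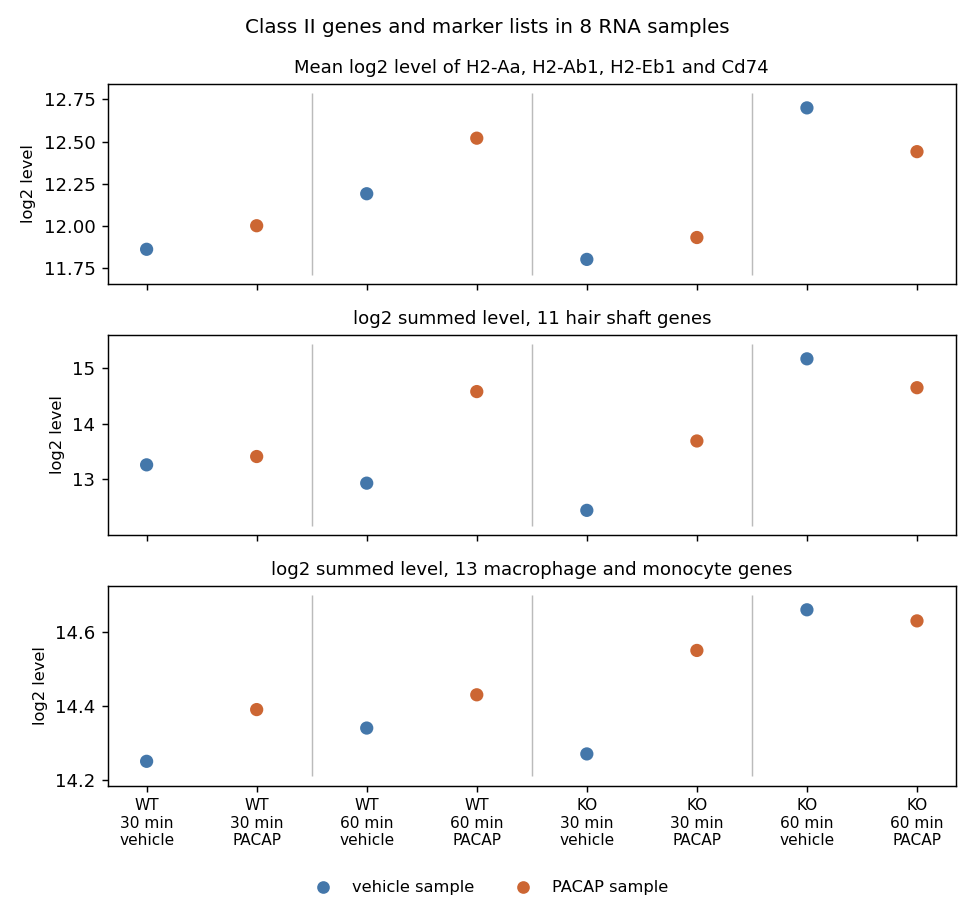
The vertical axes give the mean log2 level of 4 class II genes (top), the log2 summed level of 11 hair shaft genes (middle) and of 13 macrophage and monocyte genes (bottom) in the 8 RNA samples along the horizontal axis, blue for vehicle and orange for PACAP. The class II mean and the hair sum are both highest in KO vehicle at 60 min, at 12.70 and 15.17.

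Genes outside the list were ranked by how closely their level over the 8 samples followed the class II mean. Among 8530 probes well above background in all samples with an SD of at least 0.2, the 10 most alike had a Pearson correlation of 0.970 to 0.982 over the 8 samples, where 1.83% of probes exceeded 0.9. They were Gm10272, Krtap5-4 (a keratin-associated protein of the hair shaft), Serpina3i, Golga7b, Gm3285, Nog (the BMP antagonist noggin), Preb, a probe with no gene name, Gm10142 and Zfp707. Gm10272, Gm3285 and Gm10142 lie within chr10:77169496-77325113 (mm9). Krtap5-4 ranged from 7.08 to 9.92. Among the 10 members, levels tracked H2-Eb1 with correlations of 0.96 for H2-DMb1, 0.89 for H2-Ab1 and Itgax, 0.82 for H2-Aa, 0.77 for H2-DMa and 0.44 for Cd74, against 0.22 for Cd207, -0.46 for Epcam and -0.69 for Ciita.

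The H2 genes of the list lie within 178835 bases of chromosome 17 (34274300 to 34453134, mm9), which hold 17 probes for 12 gene names. Between them lie the class I presentation genes Psmb9, Tap1, Psmb8 and Tap2, and the class II gene H2-Ob, the 5 other names with a measured probe. None was called in any comparison. In WT at 60 min the log2 ratios of PACAP over vehicle were 0.63 for Psmb9, 0.69 for Tap1, 0.53 for Psmb8, 0.19 for Tap2, and 0.05 and 0.14 for the measured probes of H2-Ob, beside -0.01 to 0.45 for the H2 genes of the list. In KO at 60 min they were 0.02 for Psmb9, -0.03 for Tap1, -0.13 for Psmb8, 0.05 for Tap2, and -0.05 and -0.20 for the measured probes of H2-Ob, beside -0.18 to -0.53 for the H2 genes of the list.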

How the data were processed

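Skin RNA was hybridised on 8 Agilent mouse arrays (design 026655, mm9 coordinates). The authors scanned them and ran Feature Extraction (12.0.3.1 in the headers, 11.0.1.1 in the submitters' processing notes). Its deposited log10 ratios of red over green are LOWESS-normalized, its deposited p-value per spot speaks of 1 array, and its deposited intensity values are mean, local background and processed signals. The authors' series matrix holds the log10 ratio of processed signals.

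Control spots and outlier spots were left out, each ratio was signed as PACAP against vehicle, and the dye-swapped pair averaged as 1 replicate. Levels used normexp (offset 50), loess and Aquantile in limma 3.58.1 (R 4.3.3). The limma fits took probes well above background, with Benjamini-Hochberg adjustment at 0.05, and for levels genotype, time and treatment, with the RNA pair as a random block (correlation 0.179). With 1 RNA sample per condition, p-values measure the spread between these samples, and the number of RNA samples limits the precision. Each gene is given by its probe with the highest mean level. Python 3.11.15 made counts and figures. The steps were tested on simulated data. Members and lists were chosen with earlier results of these data known. From other lists, genes called or past a threshold were named, otherwise at most 4 of the largest. Promoters are from RefSeq. H2-Ea was not above background. The sequence of 1 probe is not reported here.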

Additional observations from a re-analysis of the deposited data

Results flagged for a closer look

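For 2 of the 10 genes, both WT comparisons lay on one side of 0 and both KO comparisons on the other, as did 3629 of 30350 probes (12%), a share near that of the 10 genes. Cd74 had log2 ratios of PACAP over vehicle of 0.17 and 0.13 in WT at 30 and 60 min and -0.27 and -0.21 in KO, a KO minus WT difference of -0.38 (SE 0.19, limma unadjusted p = 0.0867, adjusted p = 0.839). H2-Ab1 had ratios of 0.08 and 0.45 in WT and -0.13 and -0.30 in KO, a difference of -0.48 (SE 0.22, unadjusted p = 0.0718, adjusted p = 0.839). In WT at 30 min the 2 arrays of H2-Ab1 pointed in opposite directions, at 1.12-fold and 0.992-fold. Neither difference passed the test.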

How the results depend on the processing

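No paired analysis was possible because the replicate numbers 1 and 2 mark the dye orientation of the same RNA pair, and the pairing of PACAP with vehicle on an array is already in every ratio. Counts of members called by the 2.0-fold rule were 0 in every comparison and alternative, except 1 in KO at 30 min at 1.5-fold (H2-Aa), and 1 in KO at 60 min on the array with PACAP in Cy5 and 1 without the p filter (Ciita). For the mean of the 4 comparisons and for the PACAP effect KO minus WT they were 0 under all alternatives, including leaving out each comparison. For level KO minus WT, 1 gene passed on processed signals, 1 without Aquantile and 1 without the random block, and 0 when leaving out any pair. For 60 minus 30 min, 3 genes became 1 without the filter on dim probes, 5 without the random block, 2 on processed signals (H2-Eb1 lost), 0 in vehicle samples only, 0 in PACAP samples only, and 0 to 1 when leaving out a pair.

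Signs turned for these fitted values, none of which passed a threshold. When leaving out 1 comparison, the mean log2 ratio of 9 genes turned, with ranges of -0.19 to 0.04 for Cd207, -0.07 to 0.14 for H2-DMb1, -0.12 to 0.03 for Cd74, -0.10 to 0.27 for Itgax, -0.21 to 0.02 for H2-DMa, -0.04 to 0.17 for Epcam, -0.12 to 0.13 for H2-Ab1, -0.01 to 0.17 for H2-Eb1 and -0.02 to 0.43 for Ciita. The KO minus WT ratio ran from -0.65 to 0.60 for H2-Aa, -0.32 to 1.03 for Ciita, -0.03 to 0.47 for Cd207, -0.33 to 0.28 for H2-DMb1, -0.47 to 0.22 for H2-DMa and -0.42 to 0.19 for Epcam. For the level KO minus WT, Cd207 was -0.03 in vehicle samples only, H2-DMa -0.03, H2-Ab1 -0.14 and Ciita 0.07 in PACAP samples only, and Ciita 0.15 without Aquantile. When leaving out a pair, the values ran for Cd207 from -0.12 to 0.24, for Itgax from -0.01 to 0.44, for H2-Ab1 from -0.10 to 0.27 and for Ciita from -0.17 to 0.15. For the level at 60 minus 30 min, Epcam was 0.03 in PACAP samples only and 0.01 without Aquantile, and Cd207 ran from -0.13 to 0.24 when leaving out a pair. The cause was not tested. The further probe of H2-DMb1 and the dimmer probes of Ciita were not well above background in every sample.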
